A study of Danio rerio with 6 samples.

Results

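Axon guidance genes are the ligands and receptors that steer growing nerve fibres and set which neurons contact each other. They were picked out here from the adult zebrafish retina by name. A listed gene belonged to the set if its symbol began as those of the semaphorins of classes 3 to 7, plexins, neuropilins, ephrins, Eph receptors, Slits, Robo receptors, netrins, Unc5 receptors, Dcc, neogenin, Dscam or contactins. Of 9211 listed genes 58 matched: 29 ligands, 22 receptors, 6 adhesion molecules and unc50. The last matches by its letters only, since it encodes an intracellular membrane protein and no Unc5 receptor. The rule uses symbols only, but the table lists only genes whose larger group mean is at least 50.04, and RefSeq holds 117 genes with a matching symbol.

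Whole retinas of 6-month-old fish of the AB* background were sequenced after poly-A selection. The mutants were homozygous for the stl628 allele of thrb, the gene for thyroid hormone receptor beta, and came from the same clutches as the wild-type fish. There were 3 thrb-/- and 3 wild-type samples, each of 2 retinas from a male and 2 from a female. The allele was present throughout life and in all tissues, and only adults were sampled. The data used are the group means, log2 fold changes and standard errors (SE) of the authors' deposited table, so neither the values of single samples nor their overlap between genotypes could be given. As a check of the labels, thrb had a mean normalized count of 413 in thrb-/- retina against 3301 in wild-type retina (log2 fold change -3.01, SE 0.13, authors' deposited table).

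The families work as ligand and receptor systems. Most secreted semaphorins bind neuropilins, which signal through plexins, while most membrane-bound semaphorins bind plexins directly. Ephrins on one cell bind Eph receptors on another and can signal both ways. Slits repel axons through Robo receptors, and netrins attract through Dcc or repel through Unc5 receptors. In the retina these systems are known for guiding ganglion cell axons to the brain, for the layering of inner retinal processes and, in the vertebrate eye, for patterning its blood vessels. Many of them stay expressed in the adult.

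Most guidance genes of the thrb-/- retina were not told apart from wild-type. A single gene rose, the Unc5 receptor gene unc5c, and a single gene fell, the neuropilin gene nrp2a. The remaining 56 did not pass. Rose and fell refer to a two-sided Wald test against no change, the deposited log2 fold change over its standard error, at a Benjamini-Hochberg adjusted p under 0.05 over all 9211 genes. The share of guidance genes called was 3.45% (2 of 58), where 2.08% of all listed genes were called, 0.879% as risen and 1.21% as fallen. The authors' own test, in the authors' deposited table, asks for a change beyond 2-fold. It called 0.076% of the listed genes and none of the 58, for which the deposited adjusted p was 1. Without adjustment the Wald test had 7 guidance genes at p under 0.05, 12.1% of them, against 8.29% of all listed genes. Both calls rest on a normal reference for the statistic. With a t distribution of 4 degrees of freedom neither gene passed. Under that setting thrb itself did not pass (t-based adjusted p = 0.102), so no gene with a smaller statistic could. The nrp2a call was also lost when p was adjusted over 13700 genes (Wald adjusted p = 0.0605). That number is the smallest, from 9211 up, that fits the deposited p and adjusted p of 2 genes. As bulk retina was measured, fewer cells of a type and less RNA per cell cannot be told apart in any of these values.

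The intervals limit how much the set could have moved, again depending on the reference distribution. With the normal one, 1.96 SE on either side, the 95% interval of each of the 58 log2 fold changes lay between -1 and 1, which is within 2-fold in either direction, as did 97.1% of the intervals of all listed genes. The outermost bounds were -0.76 for sema6d and 0.999 for ntn1a, a gene listed only through its thrb-/- mean and not read further. With a t distribution of 4 degrees of freedom, 2.78 SE on either side and added after seeing the data, 54 stayed within 2-fold. The genes ntn1a, sema3gb, sema3h and unc5c reached past it, with an outermost bound of 1.25, that of ntn1a. The t intervals were not counted over all listed genes. By the normal interval of 1.96 SE, 31 members (53.4%) lay within 0.5 on the log2 scale, a 1.41-fold change, as did 70.4% of all listed genes. The guidance genes had wider errors, with a median SE of 0.16 against 0.14 over all listed genes. By point estimate 37 members, ntn1a among them, were higher and 21 lower in thrb-/- retina, so 63.8% were higher, against 50.1% of all listed genes. The median log2 fold change was 0.051 over the members and 0.00063 over all listed genes.

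**Figure D1:**
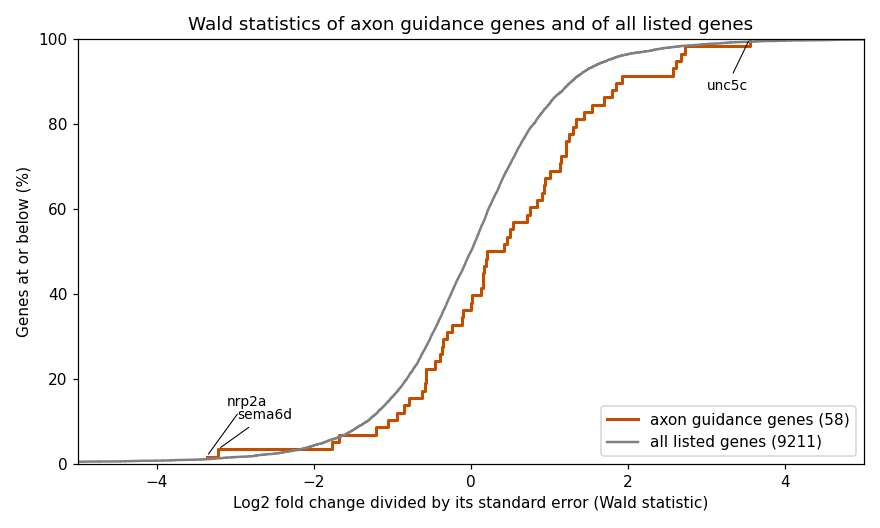
Cumulative share of genes (vertical axis, percent) against the Wald statistic, the log2 fold change thrb-/- over wild-type divided by its standard error (horizontal axis, no unit), for the 58 guidance genes and all 9211 listed genes. The step line of the guidance genes runs to the right of the line for all listed genes over the middle of the range, and unc5c, nrp2a and sema6d lie at the ends.

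Netrin receptors held the largest fold change of the set. The repulsive netrin receptor gene unc5c had a mean normalized count of 209 in thrb-/- retina against 139 in wild-type retina (authors' deposited table). It rose 1.50-fold (log2 fold change 0.59, SE 0.17, 95% interval 0.26 to 0.91, Wald adjusted p = 0.0235). RefSeq gives unc5c as an older symbol of unc5cb. Its relative unc5b, known in vertebrates from blood vessel sprouting, did not pass, at 514 in thrb-/- against 519 in wild-type retina (log2 fold change -0.014, SE 0.12, authors' deposited table). The unc5c change lay 0.60 above that of unc5b (SE 0.20, 95% interval 0.20 to 1.003), a pair singled out after its values were seen and given without a test. For the attractive netrin receptor dcc the counts were low, 78.7 in thrb-/- against 66.6 in wild-type retina (0.25, SE 0.27, authors' deposited table). The related neo1a, a receptor of repulsive guidance molecules, stood at 228 in thrb-/- against 183 in wild-type retina (0.32, SE 0.17, authors' deposited table), with an interval of -0.01 to 0.65. All receptors of the netrin group except unc5b thus had positive estimates, and only that of unc5c passed the test.

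Of the netrins, ntn1a and ntn4 were listed, and neither passed. The secreted laminin-like ntn1a had 51.1 in thrb-/- against 38.6 in wild-type retina (log2 fold change 0.40, SE 0.31, authors' deposited table). It was the only member with a group mean under 50, under the level that the larger mean of every listed gene passes. Its place in the table thus rests on the thrb-/- mean, and its difference is not read further. For ntn4 the means were 334 in thrb-/- and 325 in wild-type retina (0.04, SE 0.20, authors' deposited table).

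Neuropilins, the ligand-binding receptors for secreted semaphorins, had estimates on both sides of 0. Transcripts of nrp2a, whose mammalian counterpart binds semaphorin 3F and vascular growth factors, averaged 575 in thrb-/- against 738 in wild-type retina (authors' deposited table). The gene fell by 0.36 on the log2 scale (SE 0.11, 95% interval -0.57 to -0.15, Wald adjusted p = 0.0406), to 77.8% of the wild-type level. Its paralog nrp2b was near equal, at 208 in thrb-/- and 217 in wild-type retina (-0.062, SE 0.17, authors' deposited table). In contrast nrp1a, whose mammalian counterpart binds semaphorin 3A, had 543 in thrb-/- against 438 in wild-type retina (0.31, SE 0.12, authors' deposited table). Its interval of 0.07 to 0.55 left out 0, but it did not pass after adjustment (Wald adjusted p = 0.237). The paralog nrp1b had 371 in thrb-/- against 313 in wild-type retina (0.24, SE 0.16, authors' deposited table). The nrp1a change lay 0.67 above that of nrp2a (SE 0.16, 95% interval 0.36 to 0.99), while the nrp1b change lay 0.30 above that of nrp2b (SE 0.23, interval -0.15 to 0.76). Both differences were singled out after the values were seen and carry no test. Added over the 4 neuropilin genes, the deposited means came to 1696 in thrb-/- and 1705 in wild-type retina, a sum without an error.

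Plexins, the signalling receptors of the semaphorins, gave 4 higher and 1 lower estimate, and none passed. The one with the largest statistic was plxnb2b, with 611 in thrb-/- against 477 in wild-type retina (log2 fold change 0.35, SE 0.13, Wald adjusted p = 0.178, from the authors' deposited table). Next by statistic, with an estimate of about the same size, was plxna1b at 418 in thrb-/- against 326 in wild-type retina (0.36, SE 0.19, authors' deposited table). Both plxna4 (424 in thrb-/-, 390 in wild-type retina) and plxna3 (256 and 252 in the same order) were within 1 SE of 0 in the authors' deposited table. RefSeq gives plxna4 both as a present symbol and as an older symbol of chchd3a. The plxnb2b paralog plxnb2a, at 518 in thrb-/- against 534 in wild-type retina (-0.042, SE 0.14, authors' deposited table), is split into 3 gene copies in RefSeq, so its count is uncertain.

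**Figure D2:**
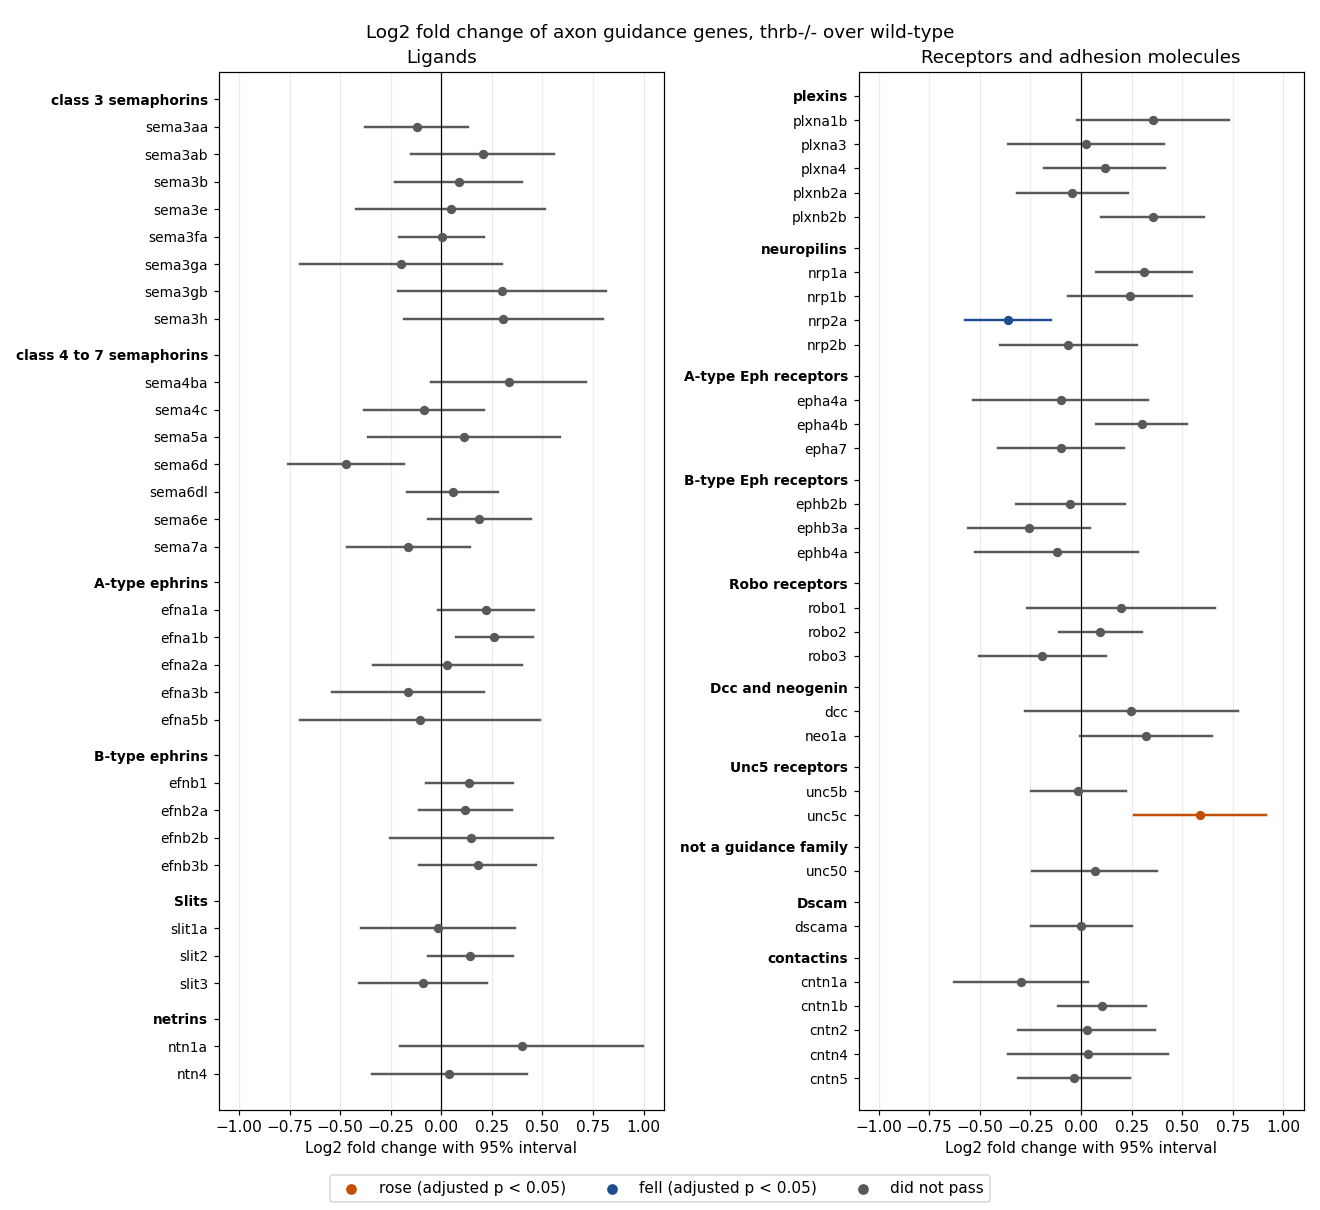
Log2 fold change thrb-/- over wild-type (horizontal axis, log2 scale) of each of the 58 genes, grouped by family, with ligands on the left and receptors, adhesion molecules and unc50 on the right. Points are estimates and bars 95% intervals of 1.96 SE. The bars of 7 genes leave out 0, and of these unc5c rose and nrp2a fell after adjustment.

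Semaphorins were the largest family, with 15 genes, and none passed. The gene listed as sema6d, a transmembrane semaphorin, came closest. Its mean normalized count was 7456 in thrb-/- against 10331 in wild-type retina (log2 fold change -0.47, SE 0.15, 95% interval -0.76 to -0.18, authors' deposited table). The adjusted p was 0.0574 by the Wald test. It went to 0.0453 when genes with mean counts below 200 were left out. Dividing by 0.942, the spread over all genes, enlarges every statistic and gave 0.0284. Adjusted over 13700 genes it was 0.0853. With the t distribution, where thrb did not pass either, the adjusted p was 0.999 for sema6d. This gene was variable for its count: its SE was above that of 91.5% of the 200 listed genes nearest to it in mean count, whose median SE was 0.096. Its identity is also uncertain, because RefSeq gives sema6d both as a present symbol and as an older symbol of sema6ca. The listed sema6dl is an older symbol of the present sema6d, and the listed sema6e of sema6cb. Since sema6d and sema6dl are listed separately, the older naming, with the listed sema6d as sema6ca, is the likelier reading. The listed sema6d and sema6e would then be paralogs that a search for symbols ending in a and b misses. Under the name sema6ca the listed sema6d lies on the chromosome of thrb.

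None of the other semaphorins of classes 4 to 7 had an interval that left out 0. In the authors' deposited table sema6dl had 520 in thrb-/- and 500 in wild-type retina (0.057, SE 0.11), and sema6e had 461 in thrb-/- and 405 in wild-type retina (0.19, SE 0.13). The sema6d change lay 0.53 below that of sema6dl (SE 0.19, 95% interval of the difference -0.89 to -0.16), again singled out after the values were seen. Against sema6e the difference was -0.66 (SE 0.20, interval -1.04 to -0.27). The membrane-anchored sema7a stood at 628 in thrb-/- against 703 in wild-type retina (-0.16, SE 0.15, authors' deposited table). For sema4ba the means were 137 in thrb-/- and 109 in wild-type retina (0.33, SE 0.20), for sema4c 298 and 315 in the same order, and for sema5a 75 and 69.8, all in the authors' deposited table. Summed deposited means of these classes came to 9575 in thrb-/- against 12433 in wild-type retina, 77% of wild-type. Without sema6d the same sums were 2119 and 2102, or 101%.

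Class 3 semaphorins, which are secreted and mostly ligands of the neuropilins, had a median log2 fold change of 0.066 over 8 genes, 6 of them higher. The class member with the largest count was sema3fa, and it was all but equal, at 1314 in thrb-/- and 1312 in wild-type retina (0.00098, SE 0.11, authors' deposited table). Its interval ran from -0.21 to 0.21. For sema3aa, a repellent in many axon systems, the means were 610 in thrb-/- and 664 in wild-type retina (-0.12, SE 0.13), and for its paralog sema3ab 180 in thrb-/- and 157 in wild-type retina (0.20, SE 0.18, both from the authors' deposited table). Transcripts of sema3b had 423 in thrb-/- against 400 in wild-type retina (0.086, SE 0.16, authors' deposited table). The low-count genes sema3e, sema3ga, sema3gb and sema3h had log2 fold changes of 0.045, -0.20, 0.30 and 0.31 in the authors' deposited table. Their standard errors ran from 0.24 to 0.26, so changes of the size seen for nrp2a were not detectable for them.

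Ephrins were higher by estimate in 7 of 9 genes, and none passed. Among the A-type ephrins, which are tethered to the membrane by a lipid anchor, efna1b had 6845 in thrb-/- against 5710 in wild-type retina (log2 fold change 0.26, SE 0.098, Wald adjusted p = 0.195, from the authors' deposited table). Its paralog efna1a was at 3110 in thrb-/- against 2674 in wild-type retina (0.22, SE 0.12, authors' deposited table), a similar estimate. The others lay nearer to 0 or had wide errors. For efna2a, efna3b and efna5b the authors' deposited table gives 0.028 (SE 0.19), -0.16 (SE 0.19) and -0.11 (SE 0.30), the last with means of 57.5 in thrb-/- and 62.2 in wild-type retina.

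All 4 listed B-type ephrins, which span the membrane and can signal into their own cell, had small positive estimates of 0.12 to 0.18 with intervals that include 0. The means in the authors' deposited table were 955 in thrb-/- against 867 in wild-type retina for efnb1, and 995 in thrb-/- against 915 in wild-type retina for efnb2a. Lower counts were given for efnb2b, 117 in thrb-/- and 106 in wild-type retina, and for efnb3b, 332 in thrb-/- and 292 in wild-type retina, in the authors' deposited table. For efnb1 the interval ran from -0.08 to 0.35 (Wald adjusted p = 0.971).

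Eph receptors, the tyrosine kinases that ephrins bind, had 5 of 6 estimates below 0, and none passed. The exception was epha4b, of an Eph receptor type that binds ephrins of both types, with 863 in thrb-/- against 700 in wild-type retina (log2 fold change 0.30, SE 0.12, Wald adjusted p = 0.219, from the authors' deposited table). Its paralog epha4a had 103 in thrb-/- and 112 in wild-type retina, and epha7 had 234 in thrb-/- and 251 in wild-type retina (authors' deposited table). The B-type receptors ephb3a, ephb4a and ephb2b were listed by the authors' deposited table at -0.26 (SE 0.15), -0.12 (SE 0.21) and -0.053 (SE 0.14). For ephb3a, at 305 in thrb-/- against 364 in wild-type retina in that table, the interval ran from -0.56 to 0.04. Summed deposited means were 12655 in thrb-/- and 10879 in wild-type retina for the ephrins, 116% of wild-type, and 1903 in thrb-/- and 1845 in wild-type retina for the Eph receptors, 103%. Large-count genes dominate such sums, which carry no error.

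**Figure D3:**
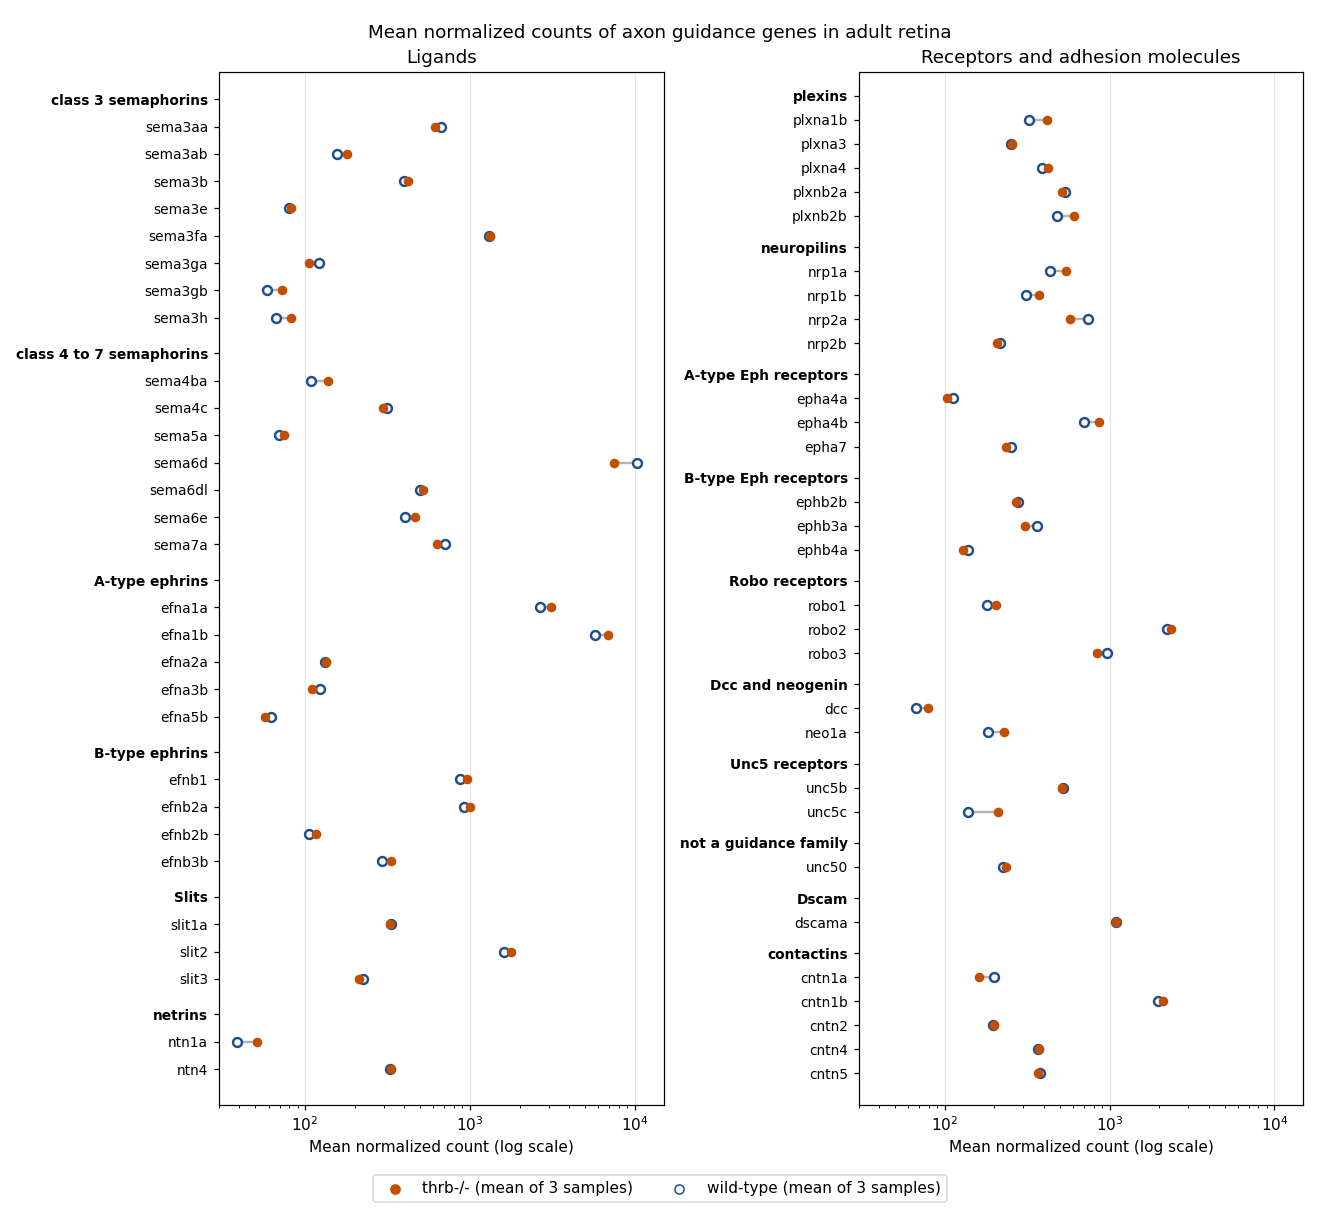
Mean normalized count of each gene (horizontal axis, log scale, not per gene length) in thrb-/- (filled points) and wild-type retina (open points), means of 3 samples each, grouped by family. Most pairs of points nearly touch. Gaps can be seen for unc5c, at 209 in thrb-/- and 139 in wild-type retina, and for sema6d, at 7456 in thrb-/- and 10331 in wild-type retina.

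None of the 3 Slit and 3 Robo genes passed, with estimates from -0.19 to 0.20. The intervals of robo1 (-0.27 to 0.66) and robo3 (-0.51 to 0.12) do not leave out changes of the size seen for nrp2a. Nor do those of slit1a (-0.40 to 0.36) and slit3 (-0.41 to 0.22). The ligand slit2 had 1778 in thrb-/- against 1610 in wild-type retina (log2 fold change 0.14, SE 0.11, authors' deposited table). For slit1a and slit3 the authors' deposited table gives -0.018 (SE 0.19) and -0.091 (SE 0.16). The receptor robo2, which zebrafish ganglion cell axons need to find their path to the brain, had 2372 in thrb-/- against 2222 in wild-type retina (0.095, SE 0.10, authors' deposited table). Its interval ran from -0.11 to 0.30. For robo3 the means were 841 in thrb-/- and 960 in wild-type retina (-0.19, SE 0.16), and for robo1 206 in thrb-/- and 180 in wild-type retina (0.20, SE 0.24, both from the authors' deposited table).

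None of the 6 listed Dscam and contactin genes, which encode adhesion molecules of the immunoglobulin superfamily, passed. The gene dscama, whose mouse counterpart keeps processes of like retinal neurons apart, had 1096 in thrb-/- and 1094 in wild-type retina (log2 fold change 0.0016, SE 0.13, authors' deposited table). Contactins are lipid-anchored partners of other adhesion molecules on axons. In the authors' deposited table cntn1b had 2121 in thrb-/- against 1974 in wild-type retina (0.10, SE 0.11), and cntn1a had 161 in thrb-/- against 198 in wild-type retina (-0.30, SE 0.17). The estimates of cntn2, cntn4 and cntn5 were 0.028, 0.033 and -0.035 in the authors' deposited table, with standard errors of 0.17, 0.20 and 0.14. For unc50, the gene outside the guidance families, the means were 236 in thrb-/- and 225 in wild-type retina (0.067, SE 0.16, authors' deposited table).

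Zebrafish keep many of these genes as duplicates, and 9 pairs named a and b had both members listed. None of the 9 differed in its log2 fold change by a Wald test of the difference adjusted over all 886 such pairs of the table, of which 1.92% differed. The median absolute difference was 0.327 over the 9 pairs and 0.127 over all 886. Such a median grows with the errors, which were not summarised over all 886. The medians thus do not show that guidance paralogs differ more than others. Standard errors of the 9 differences ran from 0.16 to 0.37, so pairs that did not pass are not shown to change alike. The smallest adjusted p among the 9 was 0.643, and 2 pairs had an unadjusted p under 0.05, a share not counted over all 886. Those were plxnb2a and plxnb2b (a minus b -0.40, SE 0.19, 95% interval -0.77 to -0.02) and cntn1a and cntn1b (-0.40, SE 0.20, interval -0.80 to -0.01). For nrp2a and nrp2b the difference was -0.30 (SE 0.20, interval -0.70 to 0.10, Wald adjusted p = 0.886), so the fall of nrp2a is not shown to be particular to that copy. In 8 of the 9 pairs the estimate of a lay below that of b, with nrp1 as the exception, again a share not counted over all 886. The test takes the errors of paralogs as independent, although both come from the same samples.

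**Figure D4:**
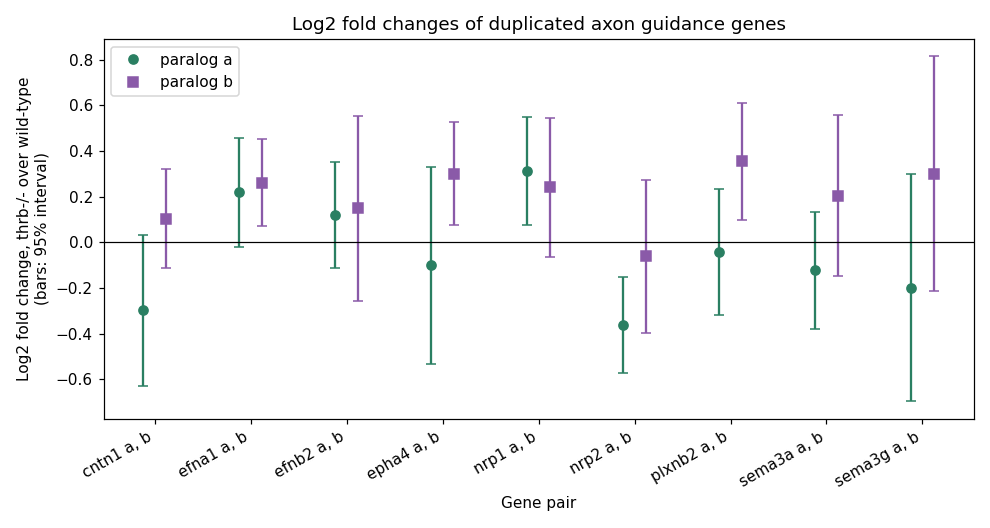
Log2 fold change thrb-/- over wild-type (vertical axis, log2 scale) of both members of the 9 duplicated guidance genes, a as circles and b as squares, with 95% intervals. The intervals of a and b overlap in all 9 pairs, least for plxnb2 and cntn1.

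Genes that act beside the listed ligands and receptors were described from 3 further lists, where 2 of 75 genes rose and none fell, against 0.879% and 1.21% of all listed genes. Without adjustment the Wald p was under 0.05 for 8.29% of all listed genes. Of 39 listed genes for intracellular and accessory steps, such as collapsin response mediators, small GTPases and actin regulators, none passed the Wald test and none had an unadjusted p under 0.05 (median log2 fold change 0.02). The members with the largest counts were the actin-severing cofilin gene cfl1, at 6813 in thrb-/- against 6271 in wild-type retina (0.12, SE 0.091), and the response mediator dpysl3, at 3313 in thrb-/- against 2989 in wild-type retina (0.15, SE 0.083), both from the authors' deposited table. Of 12 genes of L1-type and partner adhesion molecules 1 rose, chl1a, a close relative of L1, with 784 in thrb-/- against 570 in wild-type retina in the authors' deposited table. Its change was 1.37-fold (log2 fold change 0.46, SE 0.12, Wald adjusted p = 0.00706). The unadjusted p was under 0.05 for 2 of the 12, the other being the neural adhesion gene ncam1a (0.23, SE 0.094, authors' deposited table), named after its value was seen. Of 24 other guidance ligands and receptors 1 rose, lingo2b, a leucine-rich repeat membrane protein (0.79, SE 0.22, authors' deposited table), the single gene of the 24 with an unadjusted p under 0.05. Neither chl1a nor lingo2b passed with the t distribution, a setting that could not call them, since thrb with its larger statistic did not pass either. Medians of these lists were 0.062 and 0.019.

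Cell type markers were compared between genotypes in the same bulk data, which does not show which cells express the guidance genes. None of 14 ganglion cell markers passed (median -0.037, summed means 25324 in thrb-/- and 25202 in wild-type retina), none of 7 optic nerve glia markers (0.1, 1818 and 1647 in the same order), none of 5 endothelial markers (0.11, 1844 and 1812), none of 10 bipolar (0.074) and none of 5 Müller glia markers (0.023). Of 8 amacrine and 4 horizontal cell markers 1 each fell (medians 0.034 and 0.087). These were gad1b (-0.30, SE 0.086) and lhx1a (-0.63, SE 0.18, both from the authors' deposited table), named after their values were seen. By estimate 5 of the 8 and 3 of the 4 were higher. All 3 red cone genes fell, one of them thrb, the mutated gene itself, with summed means of 651 in thrb-/- against 96266 in wild-type retina, as did all 4 pigment epithelium markers, with 1535 in thrb-/- against 3191 in wild-type retina. Of 6 genes of other cones 2 rose (median 0.34), and none of 4 rod genes (0.14) or 4 immediate early genes (0.28) passed. Beside these counts, 0.879% of all listed genes rose and 1.21% fell. The part of these cell type differences in the values of unc5c, nrp2a and sema6d was not tested.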

How the data were processed

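The data used are 1 results table. Per the submitters' processing notes, DESeq2 1.18.1, R 3.4.3, HTSeq 0.9.1, STAR 2.7.2b, cutadapt 1.9.1 and the build danRer10 are named. Their roles are not given there, and the annotation is not given in the labels. The authors deposited, for each of 9211 genes, a signal that is the mean normalized count of each genotype, and a log2 fold change with its standard error. They also deposited a score, which measures in standard errors how far a change goes past 2-fold, and a p-value of that test, below 1 for 36 genes. The table holds no counts, so depth per library is unknown.

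The fold changes differ from the log2 ratio of the deposited means by at most 0.030, which fixes the direction. Wald tests were computed with scipy 1.17.1 in Python 3.11.15. The samples are pools of retinas, and p-values measure only the spread between pools as the authors' model estimated it. Symbols were matched to RefSeq (GRCz12tu, not the authors' build): 54 members carry a present symbol and 4 only an older one. RefSeq holds 117 genes whose present symbol matches the rule, and those not listed are not analysed here. The library protocol names no step that marks strand, so it is not known whether overlapping genes were told apart.

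Named genes were thrb, members past the test or with an unadjusted p under 0.05, in each family those with the largest statistic and the largest count, and in each further list those past the test or else the 2 with the largest counts. The other members were added so that each is accounted for. Members, lists and tests were chosen with earlier results of these data known.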

Additional observations from a re-analysis of the deposited data

How the results depend on the processing

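The calls depend on the reference distribution. With 4 degrees of freedom in a t distribution, 0 guidance genes passed (3 at an unadjusted p under 0.05), and thrb itself did not (adjusted p = 0.102). The authors' deposited test also called 0, since it asks for changes beyond 2-fold. Adjusted over 13700 genes, 1 passed: unc5c was called and nrp2a was not (Wald adjusted p = 0.0605). That number is a smallest fit to the deposited p and adjusted p of 2 genes, so the true number is not known. With a mean count of at least 200, 2 passed, nrp2a and sema6d, because unc5c falls below that filter. With the statistic divided by its central spread of 0.942, which enlarges every statistic, 3 passed. A filter at 100, centring, leaving out unc50 and leaving out the chromosome of thrb (the last pair added after seeing the data) each gave nrp2a and unc5c. Centring moves each fold change by only 0.00063, and unc50 was not called, so these settings could hardly change the calls. Except for the deposited test, the share of all listed genes passing was not counted under these settings. The counts therefore do not set the guidance genes apart from the rest. The genes chl1a and lingo2b lost their calls against the t distribution and under the deposited test. No pair of paralogs passed under any alternative, and the median log2 fold change of the set stayed between 0.033 and 0.051. Values per sample were not used here, so no replicate could be left out. No paired analysis was possible because the columns are means of a genotype and carry no replicate numbers. The 7 members with a mean count under 100 allow only large changes to be seen.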

Other observations

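The guidance genes shared the chromosome of thrb in few cases, as did all listed genes. Of 9131 genes placed on a single chromosome, 420 besides thrb lay on that of thrb. In RefSeq, 2 members lie there or carry an older symbol of a gene there, efna1a and the listed sema6d, and neither passed the Wald test. Of the 420 other listed genes placed on that chromosome, 5.71% passed, against 1.89% of 8710 genes placed elsewhere. Both called members, unc5c and nrp2a, lie on other chromosomes. Summed over the set, the deposited means came to 42629 in thrb-/- and 42932 in wild-type retina, 99.3% of wild-type, and without sema6d to 35173 and 32602 in the same order, 108%.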
